A study of Mus musculus with 12 samples.

Results

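The levels of 6 genes of the definitive endoderm and early gut were followed in mouse gastruloids: the transcription factor genes *Sox17*, *Foxa1*, *Foxa2*, *Hhex* and *Hnf4a*, and *Trh*, which encodes a hormone precursor. They were chosen by name, with earlier results of these data known, and are 6 of 55141 genes in the deposited count table. They were found by symbol in the deposited expression table and through the paired Ensembl identifier in the counts. Gastruloids are aggregates of embryonic stem cells that form a body axis in culture. Those used here came from the 129/SVEV mouse line, started from 300 cells each, and received 3 µM of the Wnt pathway activator CHIR for 24 h from 48 h after seeding. The study placed them in a dextran-based hydrogel to ask how mechanical confinement, set by the time of embedding and by the gel concentration, changes gene expression.

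All 12 libraries were bulk RNA-seq of gastruloids collected at 120 h, released from the gel with dextranase, with about 30 gastruloids pooled in each. There were 4 groups of 3 libraries, which the study calls biological replicates. Gels of 1.0 mM held the groups embedded at 72 h and at 96 h after seeding, and gels of 1.5 mM held another pair of groups with the same embedding times. Embedding at 72 h left gastruloids in the gel for 48 h, and embedding at 96 h for 24 h. No gastruloid grown without gel is among these libraries, so every comparison is between embedded gastruloids. The libraries held 23011791 to 27609422 counts each, and 1 transcript, CT010467.1, took 0.207% to 6.12% of them. Its share was highest in replicate 1 of the 72 h, 1.5 mM group (6.12%) and in replicate 2 of the 96 h, 1.5 mM group (4.21%).

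Definitive endoderm arises from mesendoderm at gastrulation under Nodal signalling and gives rise to the gut tube and its organs. SOX17 is an SRY-box factor needed to form it, and is also made in endothelium. FOXA1 and FOXA2 are forkhead pioneer factors that open chromatin in endoderm, and FOXA2 also marks the node, notochord and floor plate. HHEX is a homeobox factor of anterior endoderm, liver and thyroid primordia, and of endothelial progenitors. HNF4A is a nuclear receptor of visceral endoderm, liver and gut. *Trh* encodes the precursor of thyrotropin-releasing hormone, a peptide best known from the hypothalamus. In bulk tissue, fewer cells of a type cannot be told apart from less RNA per cell.

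The 6 genes lie on 5 chromosomes of the mm10 build. *Foxa2* (ENSMUSG00000037025) lies at chr2:148042877-148046969 on the minus strand, and *Hnf4a* (ENSMUSG00000017950) on the same chromosome at chr2:163506808-163572910 on the plus strand. *Sox17* (ENSMUSG00000025902) lies at chr1:4490931-4497354 and *Foxa1* (ENSMUSG00000035451) at chr12:57540628-57546121, both on the minus strand. *Hhex* (ENSMUSG00000024986) lies at chr19:37434810-37440731 on the plus strand and *Trh* (ENSMUSG00000005892) at chr6:92242061-92244650 on the minus strand. The gene span of *Sox17* overlaps that of Gm37587, which had 0 to 4 counts per library. That of *Hnf4a* overlaps Hnf4aos and Gm25881, both at 0 counts in all libraries.

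Upstream sequences of 3 genes are printed because these genes behaved differently with embedding time: *Foxa2* and *Hhex* were higher after embedding at 72 h, and *Foxa1*, the closest relative of *Foxa2* among the 6, was not. The sequences are from RefSeq on GRCm38.p6, 5′ to 3′ on the gene's strand, and lie upstream of the gene's coding transcripts. RefSeq windows matched 5 of the 6 genes, and *Sox17* is named only. *Foxa2* had 3 RefSeq windows, and the one furthest upstream is printed. Both strands were searched for the TATA box (TATAAA), the CCAAT box, a GC box (GGGCGG), a forkhead motif (TGTTTAC), a SOX motif (ACAATG), the motif of the GATA family (AGATAA) and a cyclic AMP response element (TGACGTCA), and capitals mark every match on either strand. The *Foxa2* sequence is chr2:148046970-148047219 (minus strand, 250 bases), that of *Hhex* is chr19:37434591-37434809 (plus strand, 219 bases) and that of *Foxa1* is chr12:57546122-57546361 (minus strand, 240 bases).
Foxa2: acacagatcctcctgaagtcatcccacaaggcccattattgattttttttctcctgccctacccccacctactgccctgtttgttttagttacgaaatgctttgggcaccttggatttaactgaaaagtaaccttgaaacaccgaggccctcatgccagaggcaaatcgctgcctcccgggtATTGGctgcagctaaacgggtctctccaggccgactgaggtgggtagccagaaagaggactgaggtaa
Hhex: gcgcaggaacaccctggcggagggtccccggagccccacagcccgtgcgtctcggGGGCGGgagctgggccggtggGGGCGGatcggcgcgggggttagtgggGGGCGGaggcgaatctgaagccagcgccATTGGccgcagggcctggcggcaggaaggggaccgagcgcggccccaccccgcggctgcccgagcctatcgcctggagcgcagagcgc
Foxa1: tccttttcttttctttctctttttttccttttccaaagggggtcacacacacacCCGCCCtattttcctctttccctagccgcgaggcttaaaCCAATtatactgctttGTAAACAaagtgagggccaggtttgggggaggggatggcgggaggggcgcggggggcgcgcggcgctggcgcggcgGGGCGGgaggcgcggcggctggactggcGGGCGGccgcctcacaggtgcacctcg
Positions are counted back from the RefSeq start, which is where the *Foxa2* stretch ends, while the *Hhex* and *Foxa1* stretches stop short of it, at the start of a GENCODE coding transcript. The *Foxa2* stretch held 1 of the motifs, a CCAAT read on the opposite strand at position 68. Its other windows, not printed, held 3 GGGCGG, 1 TATAAA and 1 AGATAA. The *Hhex* stretch held 3 GGGCGG and 1 CCAAT, and the *Foxa1* stretch 3 GGGCGG and 1 CCAAT. The *Foxa1* stretch lies inside a noncoding transcript of the gene in GENCODE. *Foxa1* also held a TGTTTAC on the opposite strand at position 141. Of 32851 RefSeq promoter windows, each searched over its full 250 upstream bases and so longer than the *Hhex* and *Foxa1* stretches, CCAAT occurred in 33.8%, GGGCGG in 32.7% and TGTTTAC in 3.17%. These matches describe the letters in the windows and no binding was measured.

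The 6 genes differed widely in level. Between genes, levels were compared as FPKM, the authors' length-scaled values. *Trh* was the highest of the 6 in all 12 libraries, with FPKM from 73.5 to 133 and a median of 116. *Hnf4a* was the lowest in all 12 libraries, with FPKM from 0.00656 to 0.593 and a median of 0.0881. The other 4 genes lay between them. *Sox17* had a median FPKM of 10.9 (range 8.16 to 13.5), *Foxa2* 8.30 (4.80 to 11.7), *Foxa1* 4.93 (3.58 to 6.96) and *Hhex* 4.41 (2.88 to 6.74). These neighbours overlapped in range, so the order among them was not the same in every library. *Foxa2* was above *Sox17* in replicate 2 of the 72 h, 1.0 mM group and in replicates 2 and 3 of the 72 h, 1.5 mM group. *Hhex* was above *Foxa1* in all 3 libraries of the 72 h, 1.5 mM group and in replicates 2 and 3 of the 96 h, 1.5 mM group.

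Across both gels, gastruloids embedded at 72 h had more *Foxa2* and *Hhex* transcript and less *Sox17* transcript than gastruloids embedded at 96 h. *Foxa2* was 1.55-fold higher and *Hhex* 1.47-fold higher, while *Foxa1*, *Trh* and *Hnf4a* did not pass the main test. *Trh* and *Hnf4a* passed when replicate number was added as a covariate (edgeR, adjusted p = 0.00658 and 0.0118). Change was tested by edgeR's quasi-likelihood test on counts, and a gene passed where its Benjamini-Hochberg adjusted p over all genes tested was under 0.05. With all 12 libraries and gel concentration as a covariate, 3 of the 6 genes passed, against 31.1% of the 16388 genes tested. The median log2 fold change of all genes was near 0, at -0.007.

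**Figure D1:**
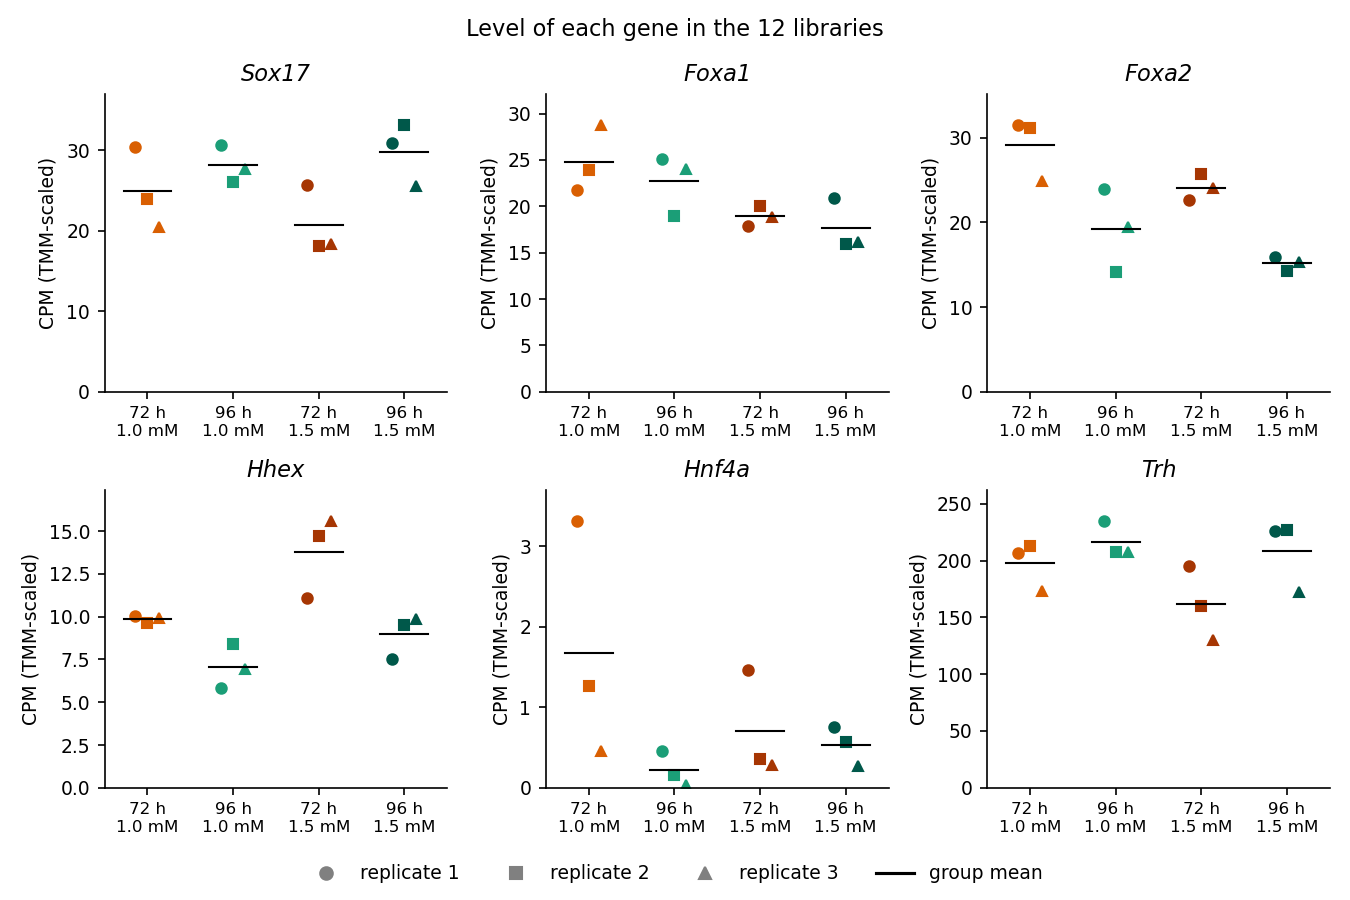
Normalised level of each of the 6 genes in the 12 libraries, in CPM (counts scaled to library size, TMM, linear vertical axes), by embedding time and gel concentration. Each point is 1 library with its replicate number as the marker, and bars give the mean of 3 libraries. *Foxa2* points of the 72 h groups lie above those of the 96 h group in the same gel, and *Hnf4a* is at 3.31 CPM or lower in every library.

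*Foxa2*, the endoderm and node pioneer factor, had the lowest adjusted p of the 6 genes over both gels (edgeR). In 1.0 mM gels it stood at 31.4, 31.1 and 24.9 CPM in the 3 libraries embedded at 72 h, and at 24.0, 14.1 and 19.5 CPM in those embedded at 96 h. With 1.5 mM it stood at 22.6, 25.7 and 24.0 CPM at 72 h, and at 16.0, 14.2 and 15.3 CPM at 96 h. The 72 h libraries were above the 96 h libraries in each gel without overlap. Of all genes, 27.9% were without overlap in 1.0 mM gels and 39.2% in 1.5 mM gels. In 1.0 mM gels, replicate 3 of the 72 h group was close to replicate 1 of the 96 h group. With the gels pooled the ranges overlapped, at 22.6 to 31.4 CPM for 72 h and 14.1 to 24.0 CPM for 96 h. *Foxa2* rose with earlier embedding in 1.0 mM gels by a log2 fold change of 0.61 with an SE of 0.172 (edgeR, adjusted p = 0.0499). It rose in 1.5 mM gels by 0.66 ± 0.0932 (edgeR, adjusted p = 0.00337), and over all 12 libraries by 0.63 ± 0.105 (95% interval 0.41 to 0.86, adjusted p = 0.000452).

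The call for *Foxa2* in 1.0 mM gels sat at the threshold. It was lost without replicate 1 (edgeR, adjusted p = 0.0977) or replicate 2 (0.0954) of the 72 h group and without replicate 2 (0.146) or replicate 3 (0.137) of the 96 h group. It was past the threshold in 7 of 17 alternative settings of the test (adjusted p from 5.79e-05 to 0.219). With 1.5 mM gels *Foxa2* kept its call when any of the 6 libraries was left out, and passed in 16 of 18 alternatives (adjusted p from 1.50e-06 to 0.0540). The change over both gels passed in all 23 alternatives, with adjusted p from 1.02e-11 to 0.00655.

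*Hhex*, the homeobox factor of anterior endoderm, was low and moved in the same direction as *Foxa2*. Its levels in 1.0 mM gels were 10.0, 9.64 and 9.95 CPM with embedding at 72 h, and 5.83, 8.43 and 6.95 CPM at 96 h. At 1.5 mM they were 11.1, 14.7 and 15.6 CPM at 72 h, and 7.54, 9.51 and 9.85 CPM at 96 h. The 72 h libraries were again above the 96 h libraries in each gel, where 27.9% (1.0 mM) and 39.2% (1.5 mM) of all genes were without overlap. With the gels pooled the ranges overlapped, at 9.64 to 15.6 CPM for 72 h and 5.83 to 9.85 CPM for 96 h. The log2 fold change over 12 libraries was 0.55 ± 0.113 (95% interval 0.31 to 0.79, edgeR, adjusted p = 0.00203) and passed in all 23 alternatives, with adjusted p from 1.59e-05 to 0.0138.

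Within single gels the evidence for *Hhex* was thinner. The log2 fold change of 0.49 ± 0.161 in 1.0 mM gels did not pass (edgeR, adjusted p = 0.0893). *Hhex* rose in 1.5 mM gels by 0.62 ± 0.160, or 1.53-fold (edgeR, adjusted p = 0.0272). That call was lost without replicate 2 (0.0834) or 3 (0.103) of the 72 h group, and without replicate 1 (0.0761), 2 (0.0691) or 3 (0.0578) of the 96 h group. Of 18 alternatives it passed in 11 (adjusted p from 0.00180 to 0.192).

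*Sox17*, the SRY-box factor of definitive endoderm, went the other way. In 1.0 mM gels the libraries embedded at 72 h had 30.4, 23.9 and 20.5 CPM and those embedded at 96 h had 30.7, 26.1 and 27.8 CPM. With 1.5 mM gels the values were 25.7, 18.1 and 18.4 CPM at 72 h and 30.9, 33.1 and 25.6 CPM at 96 h. The groups overlapped in both gels, since replicate 1 was the highest of the 72 h libraries in each. *Sox17* fell by 0.53 ± 0.150 (log2) with earlier embedding in 1.5 mM gels (edgeR, adjusted p = 0.0372), and its difference of -0.17 in 1.0 mM gels did not pass (adjusted p = 0.520). Over 12 libraries it fell by 0.35 ± 0.117 (edgeR, adjusted p = 0.0337).

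These *Sox17* calls depended on single libraries. The call in 1.5 mM gels was lost without replicate 2 (edgeR, adjusted p = 0.114) or 3 (0.125) of the 72 h group and without replicate 1 (0.0901) or 2 (0.134) of the 96 h group. It passed in 12 of 18 alternatives, with adjusted p from 0.000630 to 0.148. Over both gels the call was lost in 6 of 12 cases. At 1.0 mM these were 72 h replicate 3 (adjusted p = 0.0757) and 96 h replicate 1 (0.0621). At 1.5 mM they were 72 h replicates 2 (0.0779) and 3 (0.0790), and 96 h replicates 1 (0.0655) and 2 (0.0818). It passed in 15 of 23 alternatives (adjusted p from 0.000387 to 0.119).

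*Foxa1*, the forkhead paralogue of *Foxa2*, did not separate by embedding time. In 1.0 mM gels it stood at 21.8, 23.9 and 28.7 CPM at 72 h and at 25.1, 18.9 and 24.0 CPM at 96 h. At 1.5 mM it stood at 17.9, 20.0 and 18.9 CPM at 72 h and at 20.9, 15.9 and 16.1 CPM at 96 h. The groups overlapped in both gels. The log2 fold change over 12 libraries was 0.11, with a 95% interval from -0.09 to 0.32 (edgeR, adjusted p = 0.382), so a change in *Foxa1* as large as the 0.63 of *Foxa2* lies outside its interval.

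*Trh*, the hormone precursor, was abundant, and its differences had the sign of those of *Sox17*. The 1.0 mM libraries embedded at 72 h had 207, 213 and 173 CPM and those embedded at 96 h had 235, 208 and 207 CPM. At 1.5 mM they had 195, 159.7 and 129.9 CPM at 72 h and 226, 227 and 172 CPM at 96 h. The groups overlapped in both gels. The log2 fold change of 72 h over 96 h was -0.13 in 1.0 mM gels (edgeR, adjusted p = 0.474), -0.37 ± 0.148 in 1.5 mM gels (0.105) and -0.25 ± 0.0977 over 12 libraries (0.0639). None of these passed. Without replicate 1 of the 72 h, 1.5 mM group the difference in 1.5 mM gels was -0.53 (adjusted p = 0.00974), and it passed in 5 of 18 alternatives, among them DESeq2 (0.0362), the replicate block (0.00616) and no filter on low counts (0.00247), with adjusted p up to 0.288 in the rest. The value over both gels passed in 5 of 23, with adjusted p from 0.000355 to 0.142. Among these was the replicate block (-0.25, edgeR, adjusted p = 0.00658).

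*Hnf4a*, the nuclear receptor of liver and gut, was at the edge of detection. The libraries of the 1.0 mM gels had 78, 31 and 11 counts at 72 h and 12, 4 and 1 at 96 h. Those of the 1.5 mM gels had 33, 8 and 7 counts at 72 h and 20, 14 and 7 at 96 h. Replicate 1 had the highest count in each of the 4 groups, and the groups overlapped in both gels. At 1.0 mM *Hnf4a* was 7.56-fold higher with embedding at 72 h (2.92 ± 0.768, 95% interval 1.23 to 4.61, edgeR, adjusted p = 0.0361), and no change passed in 1.5 mM gels (0.39 ± 0.633, adjusted p = 0.701) or over both (1.60 ± 0.626, 0.0647). The call in 1.0 mM gels was lost without replicate 1 of the 72 h group (1.97, adjusted p = 0.114) and without replicate 2 (2.76, 0.132) or 3 (2.40, 0.134) of the 96 h group, and the log2 fold change reached 4.05 without 96 h replicate 1. It passed in 10 of 16 alternatives, with adjusted p from 1.81e-10 to 0.263. The value over both gels passed in 6 of 23, with adjusted p from 1.13e-06 to 0.187. Among these was the replicate block (1.53, edgeR, adjusted p = 0.0118).

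**Figure D2:**
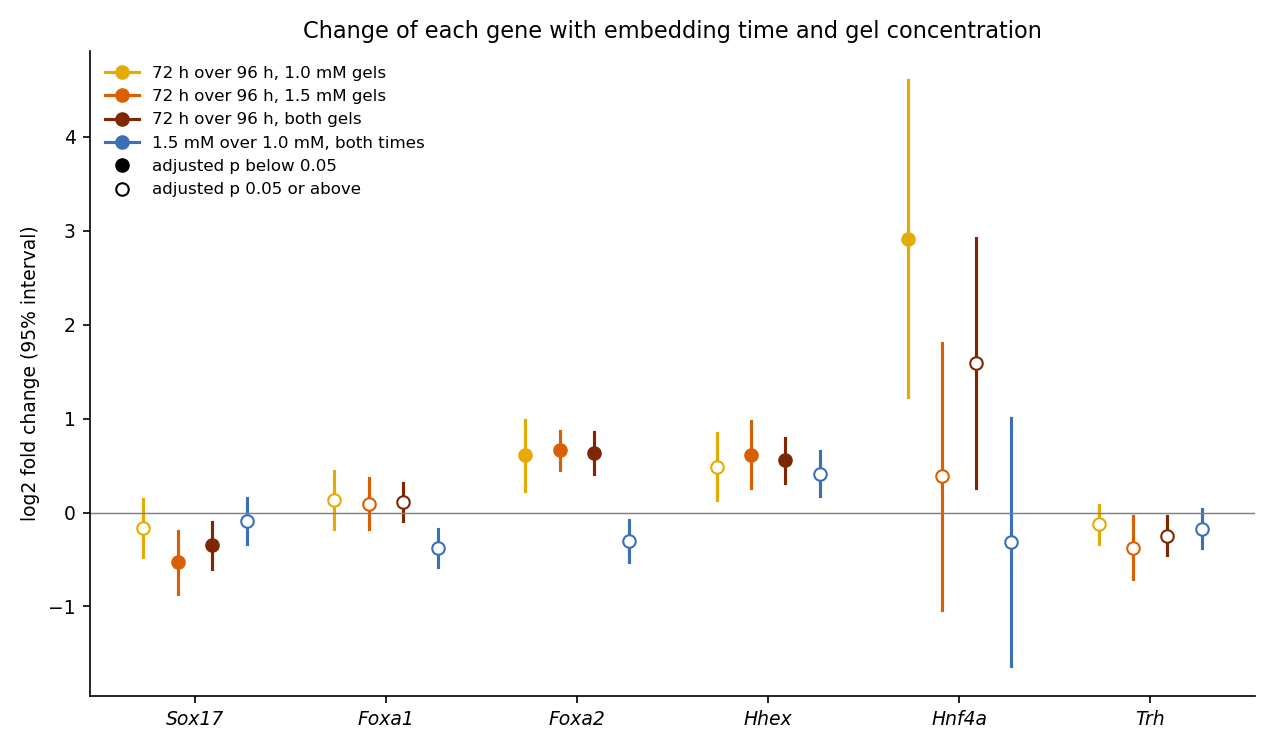
Log2 fold change (vertical axis) of each of the 6 genes with its 95% interval, for embedding at 72 h over 96 h in each gel and over both, and for 1.5 mM over 1.0 mM gel. Filled points passed an adjusted p of 0.05 in edgeR's quasi-likelihood test; *Foxa2* is filled in all 3 comparisons of embedding time, and no gene is filled for gel concentration.

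Counted within each gel, 2 of the 6 genes passed in 1.0 mM gels, *Foxa2* and *Hnf4a*, against 9.24% of the 15763 genes tested. In 1.5 mM gels 3 passed, *Foxa2*, *Hhex* and *Sox17*, against 19.3% of 15683. With a change of more than 1 on the log2 scale also required, *Hnf4a* in 1.0 mM gels was the single call among the 6, where 4.3% of all genes met both requirements, and 3.18% did so at 1.5 mM. *Foxa2* and *Hhex* were the 2 of 6 genes whose libraries did not overlap between embedding times in 1.0 mM gels (27.9% of all genes). The same 2 genes did not overlap in 1.5 mM gels (39.2% of all genes). Having 2 of 6 genes without overlap is near these shares. The changes that passed for *Foxa2*, *Hhex* and *Sox17* were thus all under 2-fold, and each share rests on 6 genes.

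Any dependence of the embedding-time effect on gel concentration was tested with an interaction term fitted to the 12 libraries. None of the 6 genes passed, nor did any of the 16388 genes (0% by edgeR). At an unadjusted p under 0.05 there were 708 genes, and DESeq2 called 2 and limma-voom 0. *Hnf4a* was the 1 gene of the 6 under that unadjusted threshold, with an interaction of -2.52 ± 1.16 (edgeR, adjusted p = 0.953). For *Foxa2* the difference in log2 fold change, 1.5 mM minus 1.0 mM, was 0.07 with a 95% interval from -0.40 to 0.53. For *Hhex* it was 0.14 (-0.35 to 0.63) and for *Sox17* -0.35 (-0.83 to 0.12). The call of *Sox17* in 1.5 mM gels alone was therefore not shown to be a difference between the gels.

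None of the 6 genes passed the test for gel concentration, at either embedding time or over both. Over both times the lowest unadjusted p-values of the 6 belonged to *Foxa1*, with lower values in 1.5 mM gels, and *Hhex*, with higher values. At 72 h the 1.5 mM libraries of *Foxa1*, at 17.9 to 20.0 CPM, lay below the 1.0 mM libraries, at 21.8 to 28.7 CPM. Those of *Hhex*, at 11.1 to 15.6 CPM, lay above the 1.0 mM libraries, at 9.64 to 10.0 CPM. These were 2 of 6 genes without overlap, against 11.1% of all genes. At 96 h 0 of the 6 were without overlap, against 15.3% of all genes.

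At 72 h edgeR called 0% of 15563 genes between the gels, with 1074 at an unadjusted p under 0.05, 14 by DESeq2 and 0 by limma-voom. At 96 h it called 0% of 15861 genes, with 1578 at an unadjusted p under 0.05, 86 by DESeq2 and 2 by limma-voom. Over both embedding times it called 5 of 16388 genes (0.0305%), and DESeq2 called 211. *Foxa1* was lower in 1.5 mM gels by a log2 fold change of -0.38 ± 0.0948 (95% interval -0.58 to -0.17), with an unadjusted p of 0.00119 and an adjusted p of 0.159 in edgeR. *Hhex* was at 0.41 ± 0.113 (95% interval 0.17 to 0.65), with an adjusted p of 0.169. DESeq2 gave the same 2 genes adjusted p-values of 0.0190 and 0.0383, so their calls differed between the tools. *Foxa2* was at -0.31 (edgeR, adjusted p = 0.255), *Trh* at -0.17 (0.485), *Sox17* at -0.09 (0.807) and *Hnf4a* at -0.32 (0.878). The last of these averages opposite values, -1.26 at 72 h and 1.26 at 96 h, and *Sox17* was at -0.27 at 72 h and 0.08 at 96 h. None of these passed.

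The proportions of the 6 genes within a library differed as well. The ratio of *Foxa2* to *Sox17* FPKM was 0.737 to 1.15 in the 6 libraries embedded at 72 h and 0.359 to 0.685 in the 6 embedded at 96 h, without overlap. This ratio joins a gene that rose with a gene that fell, and the share of all gene pairs without overlap was not computed. The ratio of *Foxa2* to *Foxa1* was 1.30 to 2.18 at 72 h and 1.14 to 1.44 at 96 h, with overlap. It was 1.94 in each of the 3 libraries of the 72 h, 1.5 mM group. The ratio of *Hhex* to *Sox17* was 0.332 to 0.791 at 72 h and 0.222 to 0.453 at 96 h, with overlap. That of *Hhex* to *Foxa1* was 0.653 to 1.44 at 72 h and 0.468 to 1.19 at 96 h, also with overlap. By contrast, *Trh* to *Sox17* stayed within 8.63 to 11.7 over all 12 libraries. It overlapped between embedding times in each gel, while at 96 h the 1.0 mM libraries (10.2 to 10.4) lay above the 1.5 mM libraries (8.67 to 9.70). A ratio shows unequal change and not which gene changed.

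**Figure D3:**
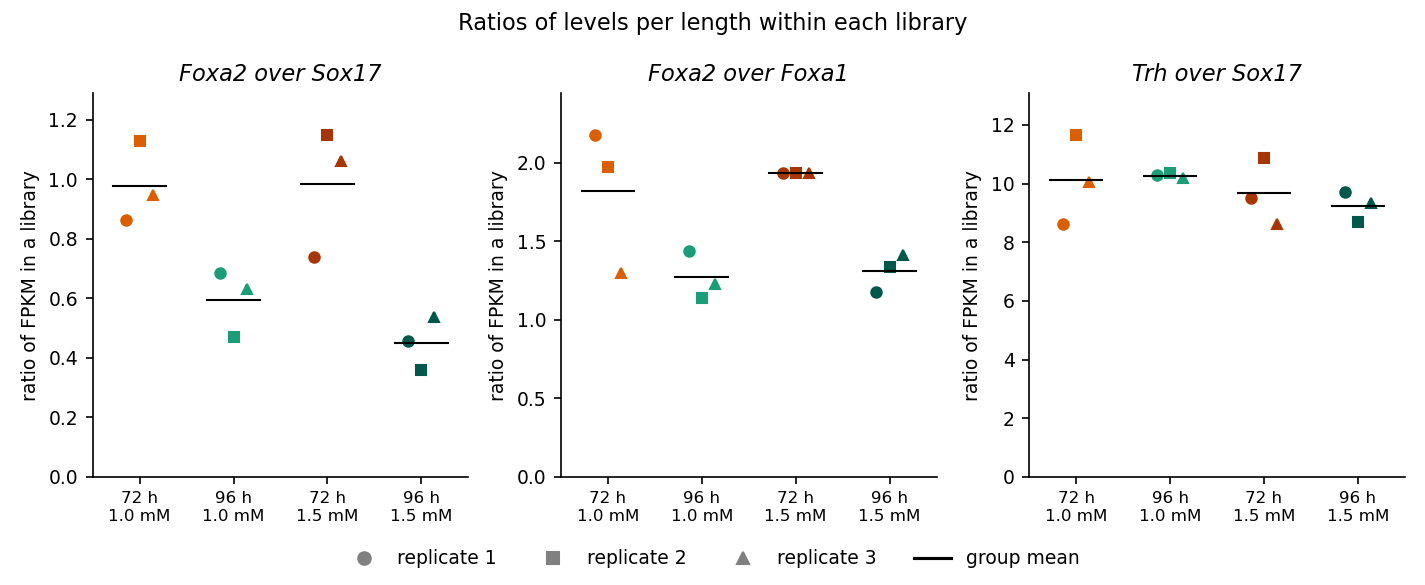
Ratios of FPKM within a library, *Foxa2* to *Sox17*, *Foxa2* to *Foxa1* and *Trh* to *Sox17*, by embedding time and gel concentration (linear axes, 1 point per library, bars for group means). The *Foxa2* to *Sox17* ratio is 0.737 or higher in every 72 h library and 0.685 or lower in every 96 h library, while the *Trh* to *Sox17* ratio overlaps between embedding times in each gel.

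*Sox17* and *Trh* varied together from library to library. The Pearson correlation of their log2 CPM was 0.88 over the 12 libraries and 0.81 after each group's mean was subtracted. Within groups *Hnf4a*, at its low counts, varied with both, at 0.87 with *Sox17* and 0.79 with *Trh*, against 0.22 and 0.22 over the 12 libraries. *Hhex* ran against both, at -0.75 with *Sox17* and -0.83 with *Trh*, and at -0.58 and -0.70 within groups. *Foxa1* and *Foxa2* were at 0.58, and at 0.39 within groups. *Foxa2* and *Hhex* were at 0.29 over all libraries and at -0.51 within groups. For *Sox17*, *Trh* and *Hnf4a*, replicate 1 was above its group's mean and replicate 3 below it in every group. These values are descriptions over 12 libraries that share their scaling, their group differences and this pattern by replicate number.

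**Figure D4:**
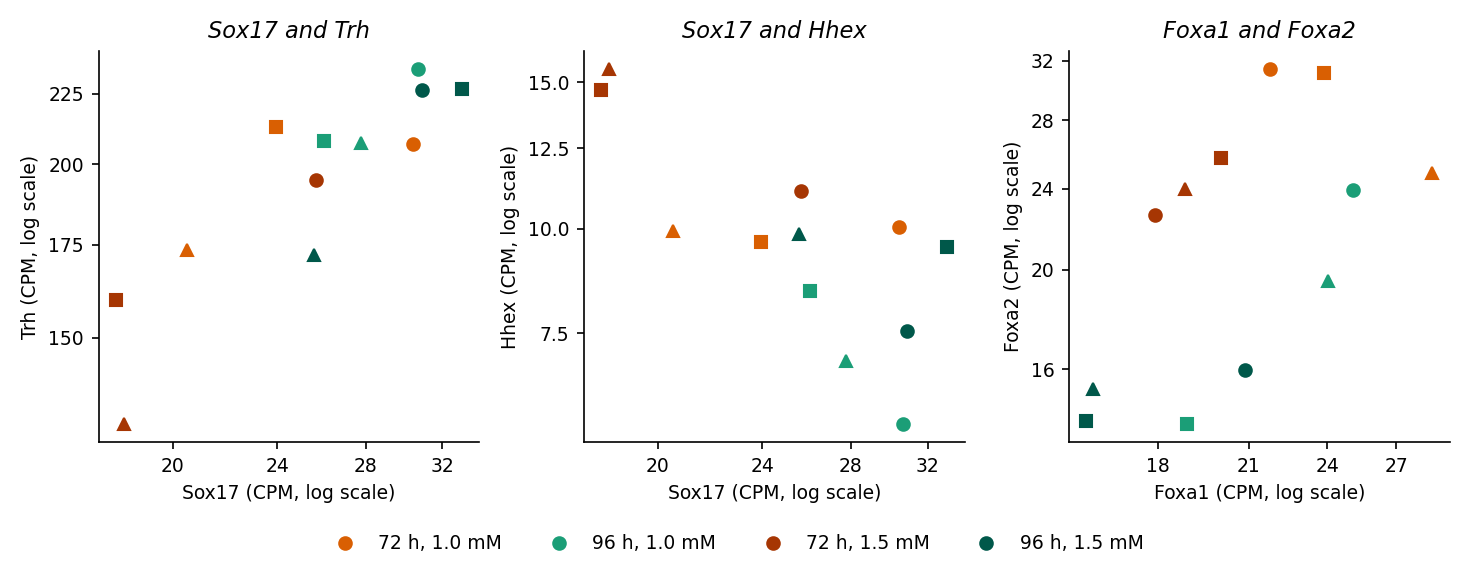
Levels of 2 genes against each other in the 12 libraries (CPM, both axes on a log scale), for *Sox17* and *Trh*, *Sox17* and *Hhex*, and *Foxa1* and *Foxa2*, with colour for group. *Sox17* and *Trh* lie along a rising line (r = 0.88) and *Sox17* and *Hhex* along a falling one (r = -0.75), while *Foxa1* and *Foxa2* scatter more (r = 0.58).

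The genes most like each of the 6 were taken as the 3 with the highest correlation of log2 CPM over the 12 libraries, among 12561 genes whose mean count was 50 or more. Those of *Sox17* were Cenpt (0.97), Mif-ps (0.94) and Mutyh (0.94), and those of *Trh* were Taf13 (0.95), Prss36 (0.91) and 2810013P06Rik (0.90). *Foxa2* was most like Btg2 (0.95), Kif12 (0.95) and Dsc2 (0.95), and *Foxa1* most like Gprc5c (0.91), Srpr (0.90) and Tent5c (0.90). For *Hhex* the genes were Tlk2 (0.95), Zfr (0.93) and Bcor (0.93). For *Hnf4a* they were Gm34030 (0.97), Phox2a (0.95) and Bmp4 (0.95). None of the other 5 genes is among the nearest of any.

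Other genes of endoderm gave a mixed picture around these 6, which is described here by counts over lists and compared with all genes. Over both gels, 16.2% of all genes tested rose and 14.8% fell with embedding at 72 h. Among 20 further gut endoderm transcription factors, 14 were tested, 6 rose and 3 fell, with a median log2 fold change of 0.31. The zinc-finger factors of endoderm and cardiac mesoderm, *Gata4* (1.95 ± 0.285, edgeR, adjusted p = 0.000166) and *Gata6* (1.22 ± 0.160, 7.10e-05), rose, as did *Prox1* (1.06 ± 0.110), a homeobox factor of liver and lymphatic endothelium. *Pax9*, of pharyngeal endoderm and somites, fell by 0.47 ± 0.144 (adjusted p = 0.0233). The other genes of the list that fell were *Cdx1* (-1.67, at a mean of 10.75 counts) and *Nkx2-3* (-0.80), which have few counts and are named after their values were seen. The summed level of the list was 346 to 375 CPM at 72 h and 188 to 211 CPM at 96 h in 1.0 mM gels, and 330 to 385 CPM against 206 to 268 CPM in 1.5 mM gels. Much of this difference lay in *Gata4* and *Gata6*. Their means in 1.0 mM gels were 79.3 and 104 CPM at 72 h, and 13.4 and 34.4 CPM at 96 h. In 1.5 mM gels they were 69.6 and 97.8 CPM at 72 h, and 27.0 and 54.3 CPM at 96 h.

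Of 16 mesendoderm and anterior endoderm genes, 15 were tested, 8 rose and 3 fell, with a median log2 fold change of 0.63. *Cer1*, a secreted Nodal and BMP antagonist, rose by 1.21 ± 0.358 (edgeR, adjusted p = 0.0188), with a wide spread of 34.0 to 106 CPM among the 3 libraries of the 72 h, 1.0 mM group. *Sfrp5*, a secreted Wnt antagonist, rose by 2.19 and *Cfc1*, a Nodal coreceptor, by 2.02. The ligand *Nodal* and its inhibitor *Lefty1* fell by 1.95 and by 4.04, and so did *Lefty2* (-3.49), which has few counts and is named after its value was seen. *Gsc*, a homeobox gene of the organiser, was at -0.47 and did not pass (adjusted p = 0.155).

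Secreted proteins of liver and yolk sac were at low levels. Of 18 such genes, 7 had enough counts to be tested. *Ttr*, the thyroid hormone carrier transthyretin, was the 1 that rose, by 2.01 ± 0.520 (edgeR, adjusted p = 0.00913), at a mean of 35.5 counts. *Afp*, *Apoh* and *Serpina1a* were at 0 counts in all 12 libraries. For each library by itself, 0 counts was taken to allow a level of up to about 3 counts, or 0.109 to 0.130 CPM. The 12 libraries together would set a tighter limit, which was not computed. *Apoa1* was at -0.16 (adjusted p = 0.851). The summed level of the list was 5.45 to 16.7 CPM in the 72 h, 1.0 mM group, the group with the most *Hnf4a*, and 4.01 to 7.77 CPM in the other 9 libraries. The part of such cells in the *Hnf4a* result was not tested. Of 16 visceral and parietal endoderm genes 4 rose and 2 fell, with a median of 0.13.

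**Figure D5:**
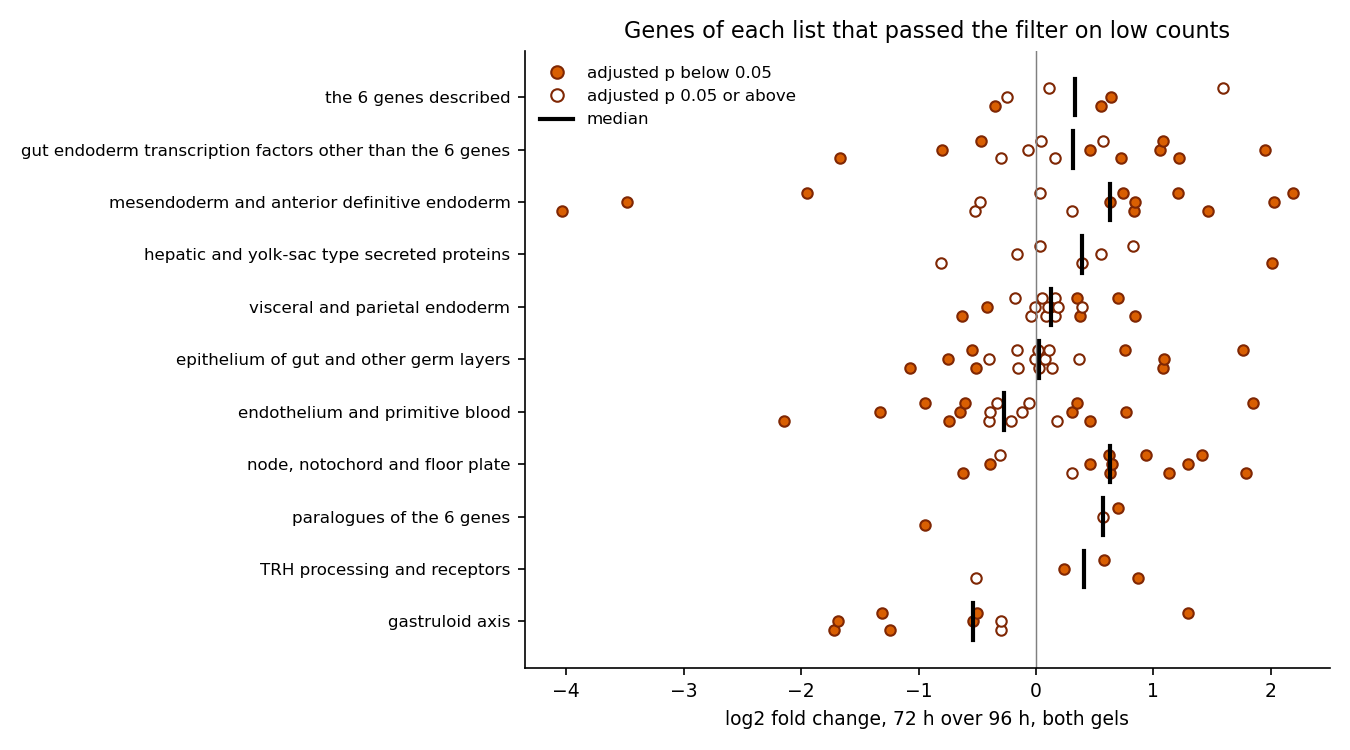
Log2 fold change of embedding at 72 h over 96 h across both gels for the 6 genes and for each gene tested in 10 lists of related genes and other cell types. Filled points passed an adjusted p of 0.05 and lines mark list medians, which are highest for mesendoderm (0.63) and for node, notochord and floor plate (0.63), and lowest for the gastruloid axis (-0.53).

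*Foxa2* is shared with the node and its derivatives. Of 15 node, notochord and floor plate genes, 13 were tested over both gels, 9 rose and 2 fell, with a median of 0.63. Within 1.0 mM gels 6 of 13 rose and 2 fell. The forkhead gene *Foxd4* rose by 1.79, the ligand *Shh* by 1.41 ± 0.125 (edgeR, adjusted p = 2.30e-06), the T-box factor *T* by 1.30 and the BMP antagonist *Nog* by 1.13. *Noto*, a homeobox gene of node and notochord, rose by 0.94 ± 0.225 (adjusted p = 0.00569). All genes named here are among those that rose. The 2 that fell over both gels are not named, and neither fell by more than 1 on the log2 scale. The summed level was 605 to 659 CPM at 72 h and 438 to 492 CPM at 96 h in 1.0 mM gels, and 478 to 652 CPM against 335 to 376 CPM in 1.5 mM gels, without overlap in either, and *Ferd3l* was at 0 counts in all libraries. The part of node, notochord or floor plate cells in the *Foxa2* result was not tested.

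*Sox17* and *Hhex* are shared with endothelium and blood progenitors. Of 20 such genes, 18 were tested, 5 rose and 6 fell, with a median of -0.27. The tight-junction gene *Cldn5* fell by 2.14, *Emcn* by 1.33 and the adhesion gene *Cdh5* by 0.65 ± 0.200 (edgeR, adjusted p = 0.0234), while the blood factor *Tal1* rose by 0.76. *Pecam1*, an endothelial adhesion molecule, was at -0.39 and did not pass (adjusted p = 0.213). Only *Tal1* is named here of the 5 that rose, so the named genes lean towards those that fell. The summed level was 509 to 629 CPM at 72 h and 537 to 572 CPM at 96 h in 1.0 mM gels, and 463 to 709 CPM against 627 to 721 CPM in 1.5 mM gels, with overlap in both. None of the 20 genes was at 0 in all libraries. The part of endothelial cells in the *Sox17* and *Hhex* results was not tested.

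The paralogues of the 6 genes moved apart as well. *Sox18*, an endothelial relative of *Sox17*, fell by 0.95 ± 0.164 (edgeR, adjusted p = 0.000624), and *Sox7*, of endothelium and parietal endoderm, rose by 0.70 ± 0.150 (0.00288). *Foxa3*, another FOXA gene, was at 0.57 ± 0.275 (0.126) with 13 to 56 counts per library. *Hnf4g* had at most 1 count in a library and was not tested. Epithelial genes were balanced, with 4 of 18 up and 4 down and a median of 0.02. The simple-epithelium keratins *Krt19* (1.09), *Krt8* (1.08) and *Krt18* (0.75) rose and *Krt7* fell by 1.08. The adhesion genes *Epcam* (-0.16, adjusted p = 0.205) and *Cdh1* (0.11, adjusted p = 0.436) did not pass.

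Beside *Trh* stood the genes that process and receive its peptide. Of 8 such genes 4 were tested and 3 rose, with a median of 0.41. The peptide-amidating enzyme *Pam* rose by 0.58 ± 0.0589 (edgeR, adjusted p = 7.71e-06) and the carboxypeptidase *Cpe* by 0.24 ± 0.0685 (0.0167). The prohormone convertase *Pcsk1*, named after its value was seen, rose by 0.87 at a mean of 16 counts, while *Trh* itself was at -0.25 and did not pass. The receptor gene *Trhr* was at 0 counts in all 12 libraries. Genes of the gastruloid axis were mostly lower at 72 h, with 6 of 9 tested falling and 1 rising, at a median of -0.53. The somite genes *Meox1* and *Tcf15* fell by 1.72 and by 1.31. The 1 gene that rose was *T*, by 1.30, which is also counted among the node, notochord and floor plate genes. The lists share other genes as well, namely *Sox9*, *Cdx2*, *Sox7*, *Sox18*, *Foxa3* and *Hnf4g*, so their counts are not independent. In the comparisons of gel concentration, and in the interaction, no gene of these 10 lists passed in edgeR.

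With both libraries of high CT010467.1 share left out, a choice made after seeing the data, the same 3 genes passed over both gels. *Foxa2* was then at 0.62 (edgeR, adjusted p = 0.00273), *Hhex* at 0.61 (0.00359) and *Sox17* at -0.36 (0.0458). Within 1.5 mM gels 4 passed, *Foxa2* at 0.66 (0.00463), *Hhex* at 0.79 (0.00886), *Sox17* at -0.64 (0.00722) and *Trh* at -0.47 (0.0298).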

How the data were processed

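Poly-A selected RNA of pooled gastruloids was sequenced with a stranded kit. According to the submitters' processing notes, reads were trimmed with cutadapt 4.4, aligned to mm10 with STAR 2.7.10b and quantified with Cufflinks 2.2.1.3. The deposited counts are raw reads per gene, and which strand setting gave them is not given in the sources used here. The FPKM values are those the authors made with Cufflinks, run for a first-strand library, scaled to transcript length and to the fragments sequenced, and were used for levels between genes and as an alternative test. A deposited table of the authors' own comparisons (log2 fold changes and adjusted p-values) was not used.

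Groups were taken from the sample labels. Counts were scaled by TMM and filtered by filterByExpr (minimum count 10, minimum total 15), the 36 mitochondrial genes were left out, and edgeR 4.0.16 in R 4.3.3 gave quasi-likelihood tests, as coded 72 h over 96 h and 1.5 mM over 1.0 mM. p-values were adjusted by Benjamini-Hochberg over all genes tested. The test itself gives no SE. Each SE was derived as the absolute log2 fold change over the square root of its F statistic. The 95% intervals were built from these SEs. Alternatives were DESeq2 1.42.0, limma 3.58.1 with voom or on log2(FPKM + 0.1) and log2(FPKM + 1), other scalings and filters, a replicate block and leaving out each library. The procedure was tested on simulated data. The 6 genes and the lists were chosen with earlier results of these data known. Named list genes are up to 4 per list past the threshold with the largest change and a mean of at least 50 counts, and genes that define a cell type or are paralogues. With 3 libraries a group, SDs and tests rest on few samples, and intervals for a count of 0 cover counting error only.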

Additional observations from a re-analysis of the deposited data

How the results depend on the processing

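Over the alternatives, 750 values of single genes kept their direction and side of the threshold, 39 lost a call, 23 gained one and 12 changed sign. For embedding time in 1.0 mM gels, 2 of the 6 genes passed. The number was 1 with limma-voom, RLE scaling, upper quartile scaling, mitochondrial genes kept or a log2 change over 1 also required. It was 0 with a filter of 1 CPM in 3 libraries or on FPKM with either pseudocount, and 0 to 2 with each library left out. The filter of 1 CPM left *Hnf4a* untested in 1.0 mM gels, and *Foxa2* was then at an adjusted p of 0.0554 (edgeR). In 1.5 mM gels, 3 passed, against 4 with DESeq2, no filter or the replicate block, 0 on FPKM with either pseudocount, 0 with the log2 requirement, 1 to 4 with each library left out and 4 without both libraries of high CT010467.1 share. Over both gels, 3 passed, against 5 with no filter, 5 with the replicate block, 0 with the log2 requirement and 2 to 4 with each library left out. On FPKM with either pseudocount, *Sox17* lost its call over both gels (limma, adjusted p = 0.118 and 0.119). For gel concentration and for the interaction, 0 passed. With no filter the number was 1 at 72 h, 3 over both embedding times and 1 for the interaction, and with DESeq2 it was 2 over both times. The cause of the other differences was not tested. Same-numbered libraries deviated together at correlations of 0.0456 to 0.302, not all over 0.1, and libraries with different numbers at -0.240 to 0.109. The numbers were not taken as pairs in the main test, since the study's methods name no pairing. The counts with the replicate block are those that take the numbers into account. Over both gels, *Trh* and *Hnf4a* are the genes that passed with the block and not in the main test.

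The values that changed sign, none of which passed a test, came from leaving out 1 library each, and the ranges over all such settings are given with them. *Hnf4a* in 1.5 mM gels ranged from -0.73 (without 72 h replicate 1) to 0.78. For gel concentration at 96 h, *Trh* ranged from -0.12 to 0.0652 (highest without 1.5 mM replicate 3) and was at 0.00425 without 1.0 mM replicate 1. Over both times, *Sox17* ranged from -0.15 to 0.00405 and *Hnf4a* from -0.58 to 0.40, both highest without 72 h, 1.0 mM replicate 1, and *Hnf4a* was at 0.03 without 72 h, 1.5 mM replicate 3. The interaction ranged from -0.11 to 0.11 for *Foxa1* (with 0.08 in a pair of other cases), from -0.12 to 0.23 for *Foxa2* (with -0.05 in another) and from -0.0141 to 0.26 for *Hhex*.

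Over all genes, 1457 passed in 1.0 mM gels, against 2283 with no filter, 224 and 276 on FPKM, and 810 and 731 without 96 h replicates 2 and 3. In 1.5 mM gels 3033 passed, against 482 and 596 on FPKM, and 1614, 1342, 1181 and 1224 without 72 h replicates 2 and 3 and 96 h replicates 2 and 3. For gel concentration, edgeR called 0 at 72 h, 0 at 96 h and 5 over both, DESeq2 14, 86 and 211, no filter 322, 333 and 512, and the block 43, 289 and 81. For the interaction these were 0, 2, 238 and 5. The low counts of *Hnf4a* limit its precision.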
